A study of Homo sapiens with 3 samples.

Results

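Clone 1, named HCC827-BR1 in the labels, was compared with HCC827, the parental line from which it was grown, on 1 array a side. These are 2 of the 3 samples of the study, and the members described are all 11803 named genes whose probe was above background on at least 1 of the 3 arrays. HCC827 is an established cell line of human lung adenocarcinoma that carries an activated mutant EGFR and needs it to grow. BIBW2992, also called afatinib, is an irreversible inhibitor of EGFR and its relatives of the ERBB family. Clone 1 and clone 2 (HCC827-BR2) are BIBW2992-resistant lines that arose under stepwise higher doses, to 2 µM in the end, over 3 to 4 months, and each descends from an individual clone. Whether cells were under drug at RNA extraction is not stated in the labels, and no unselected clone of HCC827 was analysed here, so resistance and the picking of a clone cannot be told apart. The title of the series also names dasatinib, a kinase inhibitor, but no array is labelled as treated with it.

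With 1 array a side no test is possible and every difference lacks a replicate check. All values are normalized log2 signals of 1 probe per gene, and a difference is clone minus parental on that scale, so that 1.00 is 2-fold. A probe was taken as above background where its signal exceeded 70.2 in the parental line, 66.2 in clone 1 and 71.3 in clone 2, against array medians of 60.4, 57.3 and 61.2. Above background in both parental cells and clone 1 were 10043 genes, 791 were above it in parental cells alone of this pair, 748 in clone 1 alone, and 221 in neither. Where a gene was not well above background on 1 side, the difference is a bound, written "at least". The bright side is then set against the lowest normalized signal above background on the dim array (5.41 in parental cells and in clone 1, 5.46 in clone 2) or the probe's own signal, whichever is higher. RNA came from whole cultures, so fewer cells of a kind and less RNA per cell cannot be told apart.

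The epithelial markers EPCAM, CDH1, KRT7, KRT8 and KRT19 were above background on all 3 arrays, and the probes of KRT18 on none. EPCAM, an epithelial adhesion molecule, was at 14.05 in the parental line, 10.64 in clone 1 and 8.99 in clone 2, and CDH1, or E-cadherin, at 13.11, 9.24 and 7.78, so both were over 10-fold lower in clone 1. Of the lung adenocarcinoma markers, NKX2-1, the lineage transcription factor of lung and thyroid, was at 10.01 in parental cells and below background in both clones. The fibroblast markers COL1A1, COL1A2, COL3A1, DCN, LUM and FAP, the leukocyte markers PTPRC and CD3E and the endothelial markers CDH5 and VWF were not above background on any array. CD14, LYZ, PECAM1 and TIE1 were dim, at most 7.24, and none of them was higher in clone 1 than in parental cells.

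An interferon response is the program that cells switch on when interferon receptors signal to a transcription factor complex that contains IRF9. That complex binds a repeated GAAA element before the start of its target genes, whose products block viruses, sense foreign nucleic acids and help to present antigens. Many carcinoma lines keep part of this program on without added interferon.

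Of the lists with 5 or more measured members, the interferon response genes had the widest gap between the medians of the clones, so windows around their response element are given before the values. The motif searched was GAAANNGAAA on either strand, in the 250 bases before each start in the RefSeq promoter table of GRCh38.p14. It was found in 3.71% of 27305 genes of the table and in 20 of the 29 interferon response genes that the table holds (69.0%). The 8 windows shown, 5′ to 3′ on the strand of the gene with the motif in capitals, belong to genes described next:
BST2 (chr19:17405720-17405779, minus strand): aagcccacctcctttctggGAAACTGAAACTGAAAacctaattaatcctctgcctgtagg
MX1 (chr21:41431829-41431888, plus strand): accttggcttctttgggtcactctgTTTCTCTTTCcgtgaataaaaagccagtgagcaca
IFIT3 (chr10:89332453-89332512, plus strand): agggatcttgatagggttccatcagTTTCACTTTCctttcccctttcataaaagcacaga
IFI6 (chr1:27672251-27672310, minus strand): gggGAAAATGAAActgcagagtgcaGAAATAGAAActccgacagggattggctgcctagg
GBP1 (chr1:89065301-89065360, minus strand): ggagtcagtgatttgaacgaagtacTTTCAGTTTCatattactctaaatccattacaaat
PARP9 (chr3:122564307-122564366, minus strand): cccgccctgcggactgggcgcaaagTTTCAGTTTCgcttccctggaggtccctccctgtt
IFI44 (chr1:78649746-78649788, plus strand): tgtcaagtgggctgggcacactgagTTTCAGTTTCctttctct
IFI27 (chr14:94110616-94110675, plus strand): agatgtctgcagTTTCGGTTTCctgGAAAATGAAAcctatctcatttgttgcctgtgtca
BST2 holds 2 overlapping copies of the motif, IFI6 and IFI27 hold 2 separate ones, and the other windows hold 1. A match describes these letters and is not evidence of binding.

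Clone 1 was at least 2-fold above parental cells for 748 genes (6.34%) and at least 2-fold below for 784 (6.64%), counting a gene below background on 1 side only where its bound reached 2-fold. Of the higher genes 576 were above background on both arrays and 172 were bounds, and of the lower genes 603 and 181. Without the bound the counts were 826 (7.0%) and 870 (7.37%). Gene list counts of clone 1 use the bound and stand beside 6.34% of all genes higher and 6.64% lower. By contrast 8108 genes (68.7%) lay within 1.5-fold of parental cells, and the median difference of all genes was 0.01 in each clone. As a gauge of probe error, 2449 genes had another probe above background on both arrays, and the 2 probes of a gene differed in their log2 difference by a median of 0.20 and by less than 2-fold in 96.8% of these genes.

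Most of what separated clone 1 from parental cells was also seen in clone 2. Since both comparisons share the parental array, their likeness is given as counts only, with clone 2 differences as measured. Clone 2 was at least 2-fold above parental cells for 6.83% of all genes and below for 8.24%, or for 6.27% and 7.34% with dim values at the bound. Of the 748 higher genes 521 were at least 2-fold higher in clone 2 as well, 145 were 1.5 to 2-fold higher there, 79 were under 1.5-fold off and 3 were 1.5-fold or more lower. Of the 784 lower genes the matching numbers were 578, 117, 87 and 2. The 79 higher genes (0.669% of all) and 87 lower genes (0.737%) that were at least 2-fold off in clone 1 and under 1.5-fold off in clone 2 are called here off in clone 1 by itself. The rule fixes that they are off in clone 1 and not in clone 2, and no test of that contrast is possible.

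**Figure D1:**
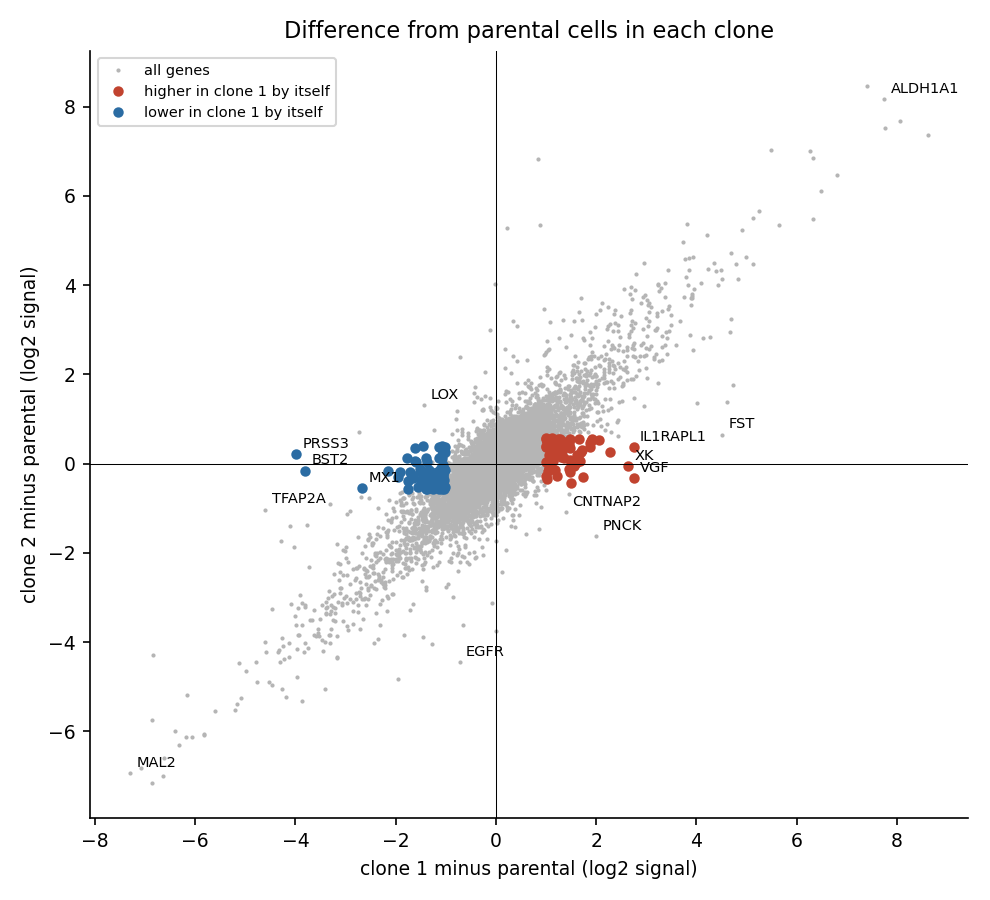
Log2 difference from parental cells in clone 1 (x axis) and clone 2 (y axis) for all 11803 genes, each point 1 gene on 1 array a side. The 79 genes higher in clone 1 by itself (red) and the 87 lower (blue) lie in the band near 0 of clone 2, while most other genes far from 0 lie in the upper right or lower left. Differences are plotted as measured, without the bound.

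The genes off by itself were mostly near the threshold. The median difference of the 79 higher genes was 1.21 in clone 1 and 0.36 in clone 2, and that of the 87 lower genes was -1.22 and -0.28. At least 3-fold off were 11 of the higher and 14 of the lower genes, and at least 2-fold apart between the clones were 35 and 40. A probe other than the brightest was available for 13 of the higher genes, 12 of which went the same way with it and 7 by 2-fold, and for 29 of the lower genes, of which 29 went the same way and 19 by 2-fold. Just inside the 2-fold threshold were SNTB2 and ACADS at 1.00 and CXCL8 and FAM90A1 at -1.01, and just outside it SIK1 and CKAP4 at 1.00 and ABHD4 at -0.99 and CDKN2A at -0.98. Near the 1.5-fold limit in clone 2 lay PTDSS2 (0.58) and MTMR2 (0.57) inside and GBE1 (0.59) and SEC11C (0.60) outside for higher genes, and RPE and MR1 (both -0.58) inside and STAG2 (-0.60) and RAI1 (-0.61) outside for lower genes.

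The interferon response genes were lower in clone 1. Of 36 measured members of the list 25 were at least 2-fold below parental cells, 0 were 2-fold above and 11 were under 2-fold, read against 6.64% of all genes 2-fold lower. Their median difference was -1.49, or -1.34 with the 6 members below background in clone 1 set at their bound, where the median of all genes was 0.01. In clone 2 the median was -0.42, and 12 members were 2-fold lower. Clone 1 had the lower signal of the clones for 34 of the 36, by at least 2-fold for 16, whereas 216 of all genes (1.83%) were at least 2-fold lower in clone 1 than in clone 2. OASL and RSAD2, antiviral effectors, were not above background on any array.

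Transcription factors of the response were among the lower genes. IRF9, a DNA-binding factor of the interferon response, was at 10.85 in the parental line, 9.24 in clone 1 and 11.20 in clone 2. IRF7, which amplifies type I interferon production, was at 8.61, 7.54 and 9.01, and IRF1, an early factor downstream of interferon gamma, at 8.67, 7.62 and 8.22. These factors are lower in clone 1 by itself, so the rule fixes clone 1 as the lowest of the 3 arrays. Their differences from parental cells were -1.61 for IRF9, -1.07 for IRF7 and -1.05 for IRF1. The calls of IRF7 and IRF1 stand near the threshold and ended under some processing settings, at -0.83 and -0.94. STING1, the adaptor that relays cytosolic DNA sensing, was 3.13-fold lower in clone 1, at 8.42 against 10.07 in parental cells and 9.74 in clone 2.

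Sensors of foreign RNA differed among themselves. IFIH1, which recognises long double-stranded RNA, was at 8.81, 6.28 and 7.23 in parental cells, clone 1 and clone 2, or 5.78-fold lower in clone 1 and 3.00-fold in clone 2. RIGI, the sensor of RNA ends, was at 6.24, 5.99 and 6.81 and so within 1.5-fold of parental cells in both clones.

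Differences among antiviral effectors varied widely. BST2, or tetherin, which holds budding virus at the cell surface, was at 9.55 in the parental line, 5.75 in clone 1 and 9.39 in clone 2. The differences were -3.80 in clone 1 and -0.16 in clone 2, the former being the largest measured on both arrays among the genes lower in clone 1 by itself. MX1, a dynamin-like GTPase that blocks viral replication, was at 11.83, 9.16 and 11.28, or 6.35-fold lower in clone 1. IFIT3, which binds viral RNA together with its relatives, was at 8.26, 6.11 and 8.09. All 3 genes belong to those lower in clone 1 by itself, so the rule places clone 1 below the other arrays. Other IFIT3 probes differed by -0.43 and -0.98 in clone 1, the latter with clone 1 below background, and averaging the probes left -1.19 in place of -2.15. In clone 2 these probes differed by 0.55 and -1.18, the latter with clone 2 below background.

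IFI44 and IFI44L, interferon-induced genes that neighbour each other on chromosome 1, were lower in both clones and farther so in clone 1. IFI44 was at 10.98 in the parental line, 6.70 in clone 1 and 9.24 in clone 2, and IFI44L at 10.09, 6.33 and 8.70. The differences of clone 1 were 19.5-fold and 13.6-fold, against 3.35-fold and 2.62-fold in clone 2. Averaging the probes of IFI44L lessened its difference from -3.77 to -2.19. IFI27, a mitochondrial interferon-induced protein, went from 9.57 to below background in clone 1, at least 17.9-fold lower, and stood at 6.30 in clone 2.

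The oligoadenylate synthetases, which activate RNase L, kept the same order of arrays. OAS1 was at 8.15 in parental cells, below background in clone 1 and at 6.03 in clone 2, and OAS3 at 9.39, 6.48 and 8.33. OAS2 was at 7.80 in parental cells and below background in clone 1, at least 5.26-fold lower, and 3.49-fold lower in clone 2. IFITM1, which hinders the entry of viruses, was 7.95-fold lower in clone 1 and 3.63-fold in clone 2, while its relatives IFITM2 and IFITM3 were 1.78-fold and 1.91-fold lower in clone 1 and close to parental cells in clone 2. HERC5, the ligase for the ubiquitin-like protein ISG15, was 8.86-fold and 4.71-fold lower. ISG15 itself was at 7.70 in parental cells and 7.52 in clone 1, under 2-fold off, and at 8.67 in clone 2. IFIT1 had the order of arrays of ISG15, at 8.48, 7.24 and 9.22, being 2.35-fold lower in clone 1 and 1.68-fold higher in clone 2.

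GBP1, a guanylate-binding protein induced by interferon gamma, was at 8.84, 7.08 and 8.45, and its other probe differed by -1.75 in clone 1 and -0.61 in clone 2. GBP2, of the same family, was at 11.13, 10.98 and 11.19 and did not share the difference. IFI6, which protects mitochondria from apoptosis, was at 11.47, 9.87 and 11.53, and its other probe differed by -1.02. PARP9 and DTX3L, partner proteins of DNA damage signalling that share a bidirectional promoter, were at 10.07, 8.91 and 9.84 and at 7.53, 6.31 and 7.30. Clone 1 was 2.24-fold and 2.32-fold lower, the DTX3L difference shrinking to -0.94 in some processing settings. HERC6 completes the 11 members that were lower in clone 1 by itself, at 8.54, 7.24 and 8.15.

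The 11 members under 2-fold in clone 1 were IFITM2, IFITM3, RIGI, ISG15 and GBP2, given above, XAF1 and TRIM22, which were below background in both clones, PARP14 (-0.83), IFI35 (-0.64), SAMD9 (-0.57) and IFIT5, the 1 member with a difference above 0 (0.05). SAMD9 and TRIM22 were the only members with a lower signal in clone 2 than in clone 1. The motif was present before 15 of the 21 lower members that the promoter table holds and before 5 of the 8 under 2-fold, and before 6 of the 10 lower in clone 1 by itself, so its presence did not set the lower members apart in these counts. Leaving out IRF9 and IFI27, the 2 members on chromosome 14, where a stretch of neighbours was displaced as described later (no member lies on chromosome X), the list kept 23 lower members of 34 and a median of -1.34.

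**Figure D2:**
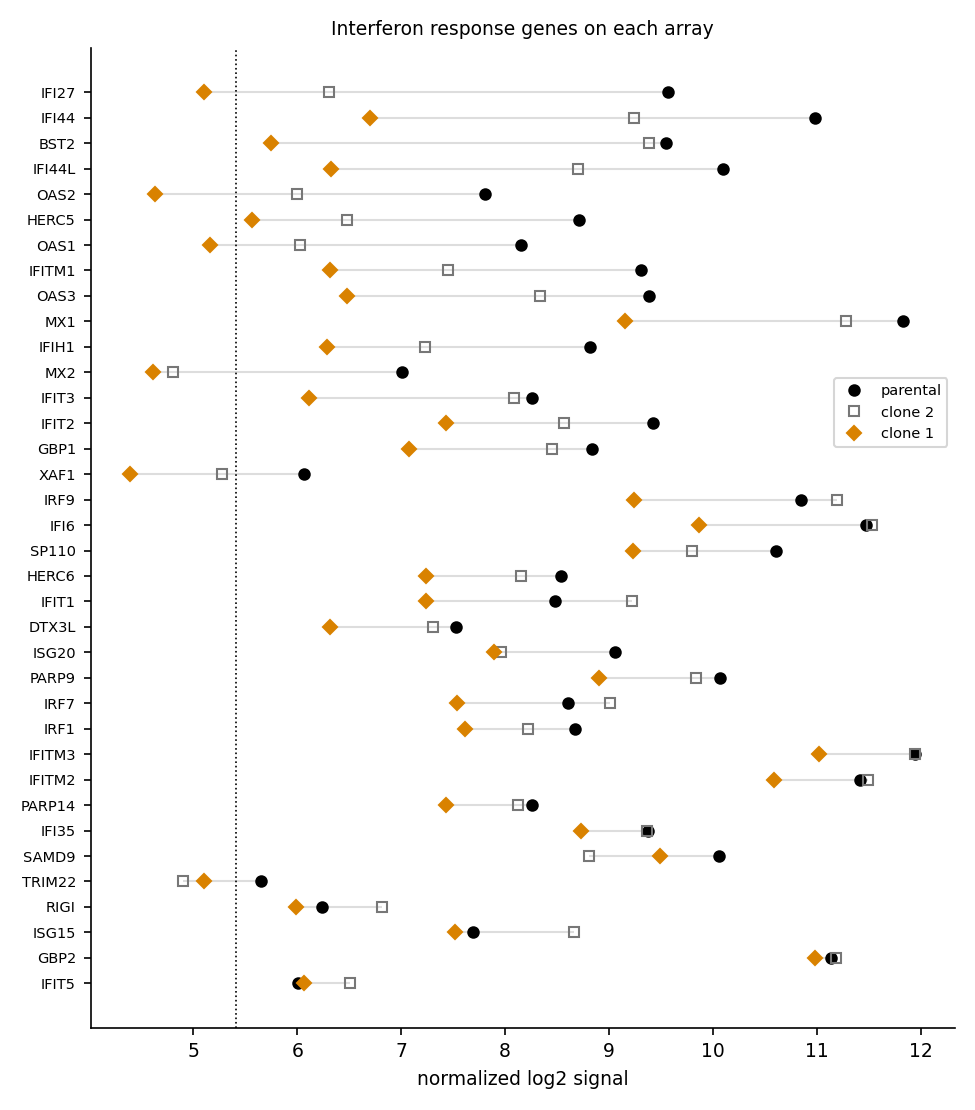
Normalized log2 signal (x axis) of the 36 interferon response genes (y axis) in parental cells (black circles), clone 2 (open squares) and clone 1 (orange diamonds), 1 array each. The dotted line marks 5.41, the lowest normalized signal above background in clone 1. Clone 1 lies left of the parental value for 35 of the genes and left of clone 2 for 34.

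Genes of antigen presentation gave a weaker picture. Of 19 measured members 4 were 2-fold lower in clone 1 and 0 higher, with a median of -0.56. In clone 2 the median was -0.49, and 4 members were 2-fold lower by the bound. In clone 1 PSMB9 and PSMB8, the interferon-induced catalytic subunits of the immunoproteasome, were 3.22-fold and 2.03-fold lower. PSMB10 was 2.32-fold lower there and HLA-DMA, a peptide editor of class II molecules, 2.41-fold. PSMB8 was about as low in clone 2, with differences of -1.02 in clone 1 and -1.09 in clone 2. B2M, the light chain of class I molecules, was at 12.29, 12.10 and 12.25. PSME2, a subunit of the proteasome activator that interferon gamma induces, was lower in clone 1 by itself, at 10.41 in the parental line, 8.70 in clone 1 and 10.22 in clone 2.

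Beside these, genes lower in clone 1 by itself covered inflammation, adhesion and secretion. PRSS3, or mesotrypsin, a digestive protease also made by carcinomas, was at 8.78 in parental cells and below background in clone 1, at least 10.4-fold lower, while clone 2 differed by 0.22. Trypsinogen genes are close relatives, so its probe may read more than 1 of them. PTGS2, or cyclooxygenase-2, which makes prostaglandins, was at 9.82, 7.92 and 9.64, and its other probe differed by -1.27 in clone 1 and 0.03 in clone 2. PLSCR1, an interferon-inducible phospholipid scramblase, was at 8.48, 6.53 and 8.17. CXCL8, the neutrophil chemokine interleukin-8, was 2.01-fold lower with 10.58, 9.57 and 10.94, and TNFAIP2 2.03-fold lower, while both were slightly above parental cells in clone 2. Both calls lie at the threshold and ended under some settings.

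Surface and matrix genes in the same set were ROR1, a receptor of WNT5A, at 7.30, 5.55 and 6.72, and CCN5, a matricellular protein, at 7.17, 5.47 and 6.84. The other ROR1 probe differed by -1.75 as well. F3, or tissue factor, which starts blood clotting, was at 10.51, 9.12 and 10.63, and its other probe differed by -1.19. TNS3, an adaptor of focal adhesions, was at 11.74, 10.26 and 11.27, and CADM1, an adhesion molecule of epithelia and synapses, at 8.03, 6.58 and 8.43. KRT7, a keratin of simple epithelia, was 2.09-fold lower in clone 1, at 10.94 against 11.97 in clone 2, which differed from parental cells by -0.04. In each of these genes the parental array and clone 2 lay closer to each other than either did to clone 1. The rule that picked these genes favours that. MLPH, which couples RAB27 vesicles to myosin, and GYG2, a primer of glycogen synthesis, were 2.92-fold and 3.41-fold lower.

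**Figure D3:**
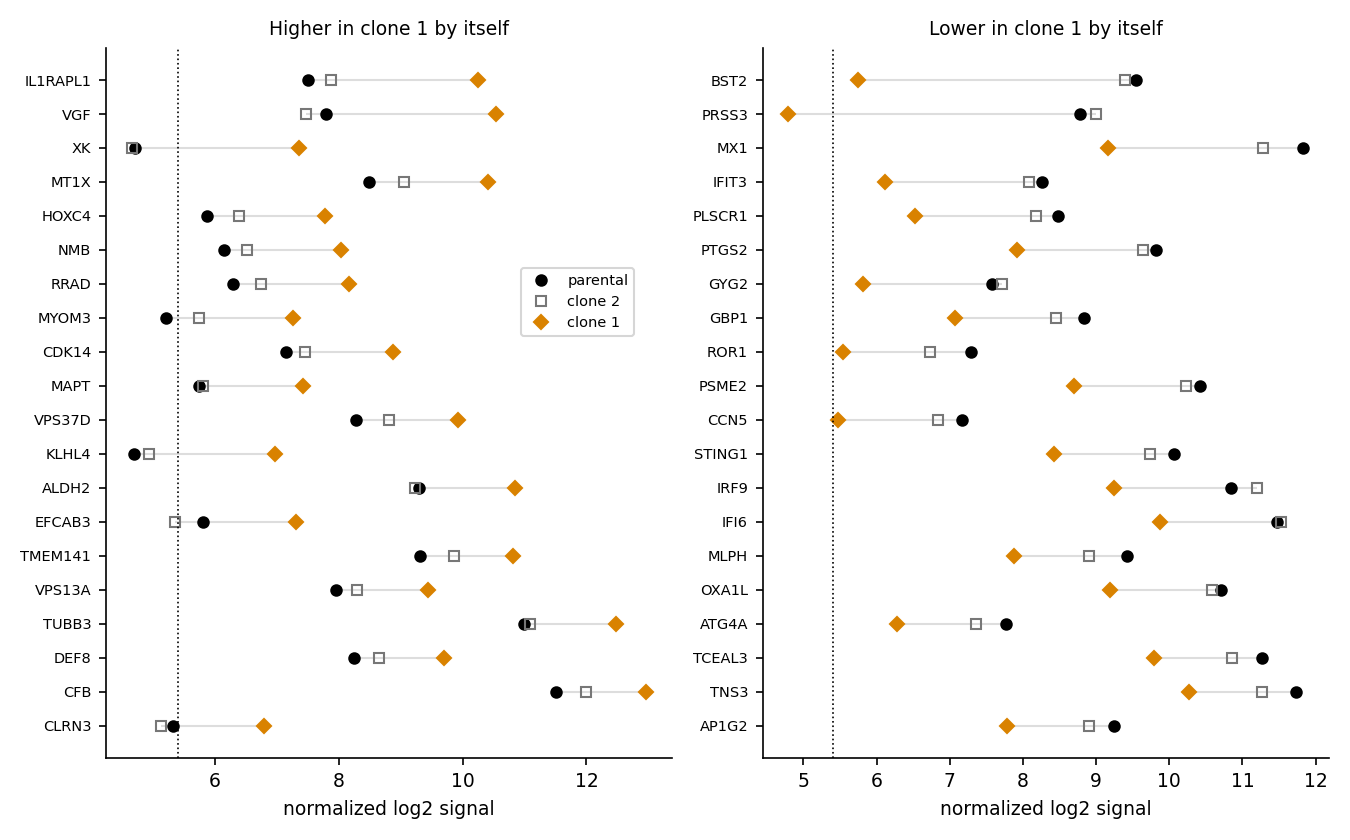
Normalized log2 signal (x axes) of the 20 genes farthest above (left) and the 20 farthest below (right) parental cells among those off in clone 1 by itself, in parental cells (black circles), clone 2 (open squares) and clone 1 (orange diamonds), 1 array each. The dotted line marks 5.41, the lowest normalized signal above background in clone 1. In every gene shown clone 2 lies near the parental value, as the rule requires, and clone 1 apart from both.

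Among the genes higher in clone 1 by itself, IL1RAPL1 and VGF had the largest differences measured on both arrays. IL1RAPL1, a synaptic adhesion protein of the interleukin-1 receptor family, was at 7.50 in the parental line, 10.26 in clone 1 and 7.87 in clone 2, 6.73-fold higher in clone 1. VGF, the precursor of secreted neuropeptides, was at 7.80, 10.55 and 7.48, 6.72-fold higher. By the rule clone 1 stood above both other arrays in each gene, with clone 2 near parental cells. NMB, the peptide neuromedin B, was at 6.15, 8.04 and 6.51, and MAPT, the microtubule protein tau, at 5.75, 7.43 and 5.81. TUBB3, a tubulin of neurons and of many carcinomas, was at 12.48 in clone 1 and 11.08 in clone 2, with differences of 1.48 and 0.09. POU4F1 and ISL1, transcription factors of sensory neurons, were 2.57-fold and at least 2.46-fold higher. POU4F1 and ISL1, like CADM1 and RDH5, were named after their values were seen. Neuronal genes as a list did not move one way. Of its 13 measured members 5 were 2-fold higher and 3 lower, with a median of -0.01. NCAM1, a neural adhesion molecule, was higher by at least 14.5-fold in clone 1 and by at least 5.82-fold in clone 2. Its other probe differed by 0.69 in clone 1, and averaging the probes lessened the difference from 3.85 to 2.06. NLGN1, a synaptic adhesion protein, was at least 14.1-fold and 15.5-fold higher. ENO2, the neuronal enolase, was 3.65-fold and 2.47-fold higher, whereas SCG5, a chaperone of secretory granules, was at least 3.73-fold lower in clone 1.

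Other genes higher in clone 1 by itself had metabolic, signalling and membrane roles. ALDH2, the mitochondrial enzyme that clears acetaldehyde, was at 9.29, 10.85 and 9.23, 2.94-fold higher in clone 1. RDH5, a retinol dehydrogenase, was at 7.24, 8.45 and 6.97. CDK14, a cyclin-dependent kinase that acts at the membrane in WNT signalling, was at 7.15, 8.88 and 7.46, and RRAD, a small GTPase that inhibits calcium channels, at 6.29, 8.17 and 6.75. The other RRAD probe differed by 1.53. CFB, complement factor B, was at 11.51 in parental cells and 12.96 in clone 1 and differed by 0.49 in clone 2. XK, a membrane protein of the Kell blood group complex, was at least 3.88-fold higher in clone 1 and below background in the other arrays, and MYOM3, a myomesin, was at least 3.63-fold higher. TIMP2, an inhibitor of metalloproteinases, was 2.20-fold higher, with 0.27 for its other probe and 0.71 for the average of both.

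Among the gene lists that stood higher in clone 1 were the metallothioneins, small proteins that bind zinc and copper. Of 8 measured members 5 were at least 2-fold higher and 0 lower, with a median of 1.30, against 1 higher and a median of 0.74 in clone 2, and 6.34% of all genes 2-fold higher in clone 1. MT1X was at 8.50, 10.42 and 9.05, MT2A at 12.11, 13.41 and 12.91, and MT1H at 5.84, 7.16 and 7.13. MT1G, at 8.55 in clone 1 and 7.74 in clone 2, was 2.94-fold and 1.68-fold higher. Clone 1 was the highest of the 3 arrays for each, with MT1H level between the clones. Metallothionein genes are near-identical in sequence, so a probe may read several of them. MTF1, the zinc-sensing factor that drives them, was at 7.75, 7.88 and 7.75.

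The IGF binding proteins, which hold insulin-like growth factors outside the cell, spread widely. Of 7 measured members 3 were 2-fold higher and 2 lower in clone 1. IGFBP7 was at least 83.6-fold higher and IGFBP3 at least 74.6-fold lower, and clone 2 did likewise. IGFBP6 was higher in clone 1 by itself, at 7.55, 8.69 and 7.60, and IGFBP1 stood at 6.05, 7.80 and 6.97. HOXC4 and HOXC6 are developmental factors next to each other among the described genes of chromosome 12. They were at 5.88, 7.78 and 6.38 and at 8.56, 9.72 and 9.09. Among 17 measured HOX genes they were the 2 higher members, and 1 was lower, beside 6.34% and 6.64% of all genes. SEMA3C, a secreted semaphorin, was at 7.89, 9.19 and 8.31.

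Position along the chromosomes set another group apart. Chromosome X held 35 of the 87 genes lower in clone 1 by itself (40.2%) but 421 of the 11792 placed genes (3.57%). In RefSeq order, a stretch from SH3BGRL to RTL8B on its long arm held 131 genes, 97 of them above background in both parental cells and clone 1. The median difference of these 97 was -1.06 in clone 1 (quartiles -1.45 and -0.38) and -0.23 in clone 2. Below parental cells were 85 of them in clone 1 and 67 in clone 2, and 88 were lower in clone 1 than in clone 2. Over the whole stretch 56 genes were at least 2-fold lower and 9 higher in clone 1, and 27 were lower by itself. The stretch was chosen after seeing the values, where the running median of clone 1 minus clone 2 over 15 genes passed 0.5 either way. At least 20 such windows were required. This choice favours genes with the clones apart, here and in the stretches given below.

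Lower values of clone 1 were also found before that stretch. The limit used for them, AMER1, does not come from the window rule. It is itself a gene lower in clone 1 by itself (-1.28), so this choice favours lower values of clone 1 after it. The 142 genes above background on both arrays that lie before AMER1 had medians of 0.10 in clone 1 and 0.14 in clone 2. From AMER1 up to SH3BGRL the 36 such genes had medians of -0.84 and -0.34, and after RTL8B the 56 remaining had -0.26 and -0.35. The 2 clones were thus alike at both ends of the chromosome and clone 1 was lower from AMER1 to RTL8B. Named genes of the stretch span unrelated roles: HPRT1, the purine salvage enzyme often used as a reference gene, was at 12.85, 11.68 and 12.66 and its other probe differed by -1.32. SLC25A5, a mitochondrial carrier of adenine nucleotides, was at 13.81, 12.75 and 13.51. RPL39, a ribosomal protein, was at 13.01, 11.77 and 12.73. GLA, the lysosomal galactosidase deficient in Fabry disease, was at 10.24, 9.05 and 9.93. These 4 were taken from the genes lower in clone 1 by itself, of which the stretch holds 27 among its 131.

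Runs of 3 neighbours lower in clone 1 by itself were found within that stretch, beside shorter ones. Neighbours are genes next to each other among the 11792 placed genes, so other genes may lie between them. TCEAL4, TCEAL3 and TCEAL1, genes of a family related to an elongation factor, were at 12.88, 11.69 and 12.65, at 11.27, 9.79 and 10.85 and at 8.88, 7.66 and 8.41. The other probes of TCEAL3 and TCEAL1 differed by -1.56 and -1.28 in clone 1 and by -0.47 and -0.71 in clone 2. That of TCEAL1 was thus past the 1.5-fold limit in clone 2. LONRF3, SLC25A43 and SLC25A5 formed the other run of 3 on this chromosome, with differences of -1.08, -1.32 and -1.06, the call of LONRF3 ending at -0.85 in some settings. BEX2, a nearby gene expressed in brain, was 7.80-fold lower in clone 1 and 2.19-fold in clone 2.

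On chromosome 14 the stretch from PNP to COCH, at the start of the long arm, held 68 genes, 55 of them above background on both arrays. Their median was -0.55 in clone 1 and 0.37 in clone 2, 45 were below parental cells in clone 1 and 15 in clone 2, and 52 were lower in clone 1 than in clone 2. Here the clones lay on opposite sides of parental cells. Of its genes 7 were lower in clone 1 by itself: IRF9, PSME2, OXA1L, AP1G2, LRP10, TOX4 and DHRS4. OXA1L, which inserts proteins into the inner mitochondrial membrane, was at 10.71, 9.19 and 10.58, and LRP10, a sorting receptor, at 9.82, 8.42 and 9.49. Before PNP 7 genes above background on both arrays had medians of -0.69 in clone 1 and 0.03 in clone 2. After COCH the medians were -0.29 and -0.26, close to each other. The median of clone 1 was thus below parental cells in all of these parts, and that of clone 2 was highest within the stretch. IRF9 is also a member of the interferon response list, so both groupings hold it.

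Of the genes higher in clone 1 by itself 10 lay on chromosome 12 and 10 on chromosome 16 (12.7% each, against 5.31% and 4.40% of placed genes). On chromosome 16 the genes from SHCBP1 to ENKD1 and those after it had medians of 0.21 and 0.16 in clone 1 but -0.32 and -0.57 in clone 2, so the clones lay apart there through lower values of clone 2. The longest run of higher neighbours was MC1R, TUBB3 and DEF8 near the end of chromosome 16, with differences of 1.02, 1.48 and 1.46 in clone 1 and -0.34, 0.09 and 0.41 in clone 2. Transcripts that join MC1R, a melanocortin receptor, to TUBB3 are known. Other DEF8 probes differed by 1.10 and 0.37 in clone 1 and by 0.39 and -0.77 in clone 2. The calls of MC1R and DEF8 ended in some settings, at 0.88 and 0.97.

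**Figure D4:**
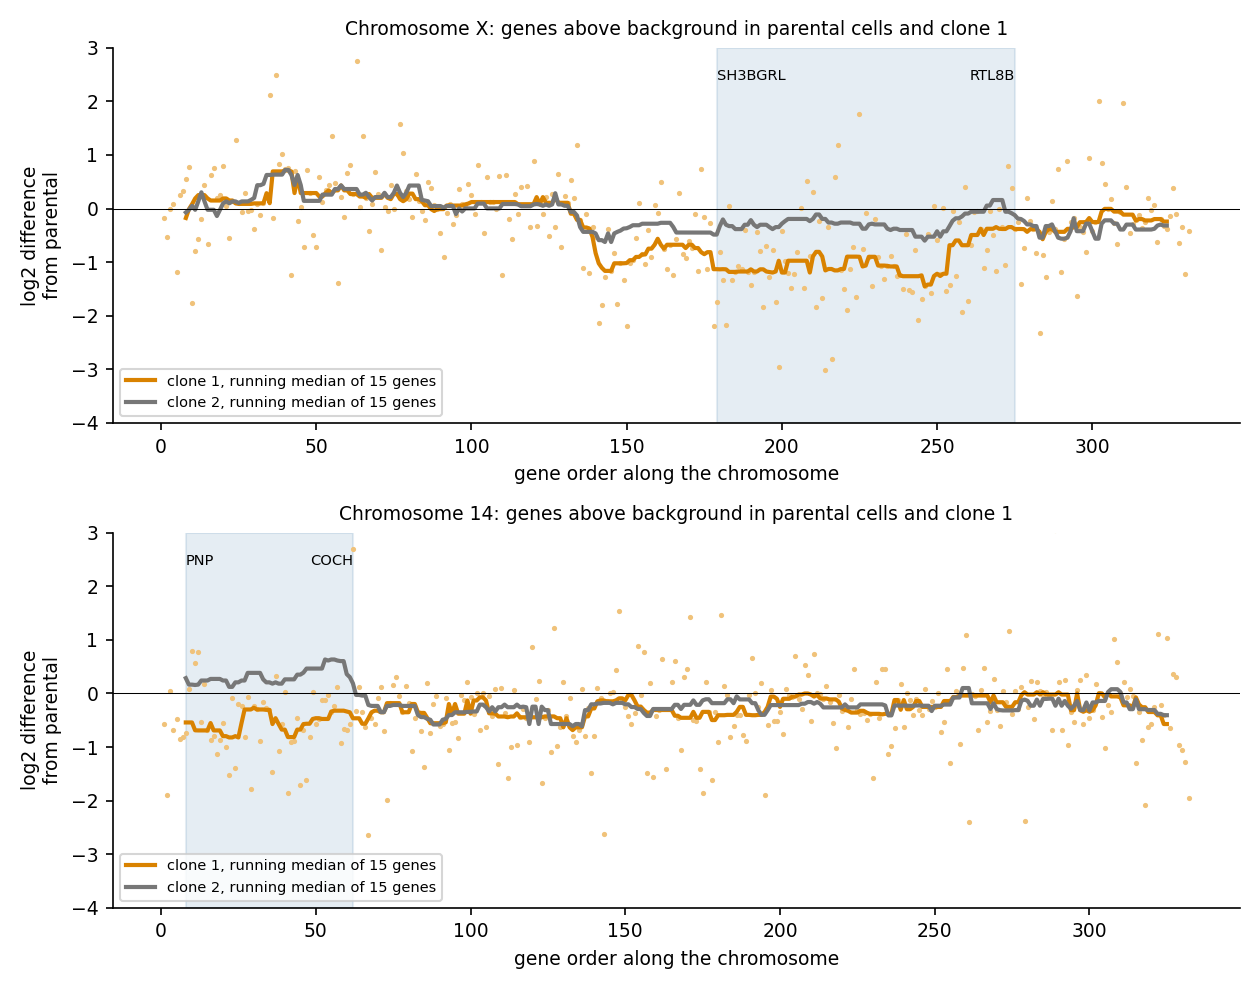
Log2 difference from parental cells (y axis) of genes above background in parental cells and clone 1, in their order along chromosomes X and 14 (x axis, rank of the gene), with points for clone 1 and running medians of 15 genes for clone 1 (orange) and clone 2 (grey). The shaded stretches run from SH3BGRL to RTL8B, where the medians over genes were -1.06 and -0.23, and from PNP to COCH, where they were -0.55 and 0.37.

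Few genes were 2-fold off in opposite directions in the clones by their measured signals, 3 in all (0.0254%). PNCK, a calmodulin-dependent protein kinase, was at 7.48 in the parental line, 9.48 in clone 1 and 5.85 in clone 2. CNTNAP2, a neurexin-like adhesion protein, was at 9.41, 10.80 and 8.32. LOX, which cross-links collagen, was at 6.01, below background in clone 1 and at 7.33 in clone 2, so that clone 1 was at least 1.52-fold lower. Its count among the 3 rests on the dim signal of clone 1 taken as measured, at 4.58.

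Of all 11803 genes a further 30 higher and 34 lower ones went the same way in both clones. They were at least 1.5-fold off in clone 2, with clone 1 at least 2-fold farther. The matching counts for clone 2 are not given here, so these do not tell which clone lay farther out. FST, or follistatin, which binds activin, was at 7.23 in the parental line, 11.75 in clone 1 and 7.88 in clone 2, 22.9-fold and 1.57-fold higher. The other FST probe differed by 3.32 in clone 1 and -0.43 in clone 2, with parental cells and clone 2 below background. The shared direction of FST thus rests on 1 probe. GSTA1, a glutathione transferase, was at least 18.1-fold higher in clone 1, at 9.58 where parental cells were below background, and at 6.36 in clone 2, at least 1.94-fold higher. Its near-identical relative GSTA2, chosen after its values were seen, was at 8.90 in clone 1 and 6.26 in clone 2. ALDH1A3, a retinaldehyde dehydrogenase, was at 12.31, 5.47 and 8.02, 114-fold lower in clone 1. TFAP2A, an epithelial transcription factor also chosen after its values were seen, was at 11.76, 7.16 and 10.73. UBE2L6, the conjugating enzyme of ISG15, and TNFSF10, the death ligand TRAIL, named for the same reason, were also lower in clone 1. The difference of UBE2L6 was 16.3-fold, and TNFSF10 went from 7.73 in parental cells to below background. FST is a member of the TGF-beta and BMP list, where 5 of 19 measured genes were 2-fold higher and 2 lower in clone 1.

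EGFR, the receptor that BIBW2992 targets, differed by less than 2-fold in clone 1. It was at 13.35 in the parental line, 12.63 in clone 1 and 8.90 in clone 2, a difference of -0.72 that other settings moved between -0.86 and -0.20, and its other probes differed by -0.07 and 0.18. Among 10 measured ERBB receptors and ligands 1 was 2-fold higher and 2 lower in clone 1, beside 6.34% and 6.64% of all genes. Their median was -0.13 and ran from -0.19 to 0.02 over the processing settings. ERBB3 and ERBB2, the partners of EGFR, were 2.64-fold and 2.49-fold lower, the ERBB3 difference shrinking to -0.47 when probes were averaged, and the ligand HBEGF was 3.67-fold higher. MET, the receptor of hepatocyte growth factor, was at 10.06, 9.30 and 8.90, and SRC, a target of dasatinib, at 9.44, 9.29 and 9.37. AXL was below background in parental cells, and its brightest probe gave bounds of 1.88-fold for clone 1 and 3.67-fold for clone 2, both upward. The other AXL probe, also below background in parental cells, differed by 0.39 in clone 1 and 1.68 in clone 2. Over the processing settings the clone 1 difference of AXL ran from 0.57 to 1.02.

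Output genes of the ERK pathway, which acts below EGFR, were 2-fold higher in 2 and lower in 5 of 24 measured. Of all genes 6.34% were 2-fold higher and 6.64% lower. DUSP6, an ERK phosphatase induced by ERK itself, was at 9.33 in parental cells, below background in clone 1 and at 6.08 in clone 2, at least 15.2-fold lower in clone 1. EGR1, an immediate-early factor, was at 10.40, 8.45 and 5.57, and FOS at 7.84, 6.26 and 5.61, so clone 1 lay between parental cells and clone 2. DUSP1, a stress-induced phosphatase, was 4.17-fold higher, and CCND1, cyclin D1, was at 12.67, 12.98 and 13.51.

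Epithelial junction and surface genes had the lowest median of the lists in clone 1. Of 28 measured members 19 were at least 2-fold lower and 1 higher, with a median of -2.95, or -2.62 with dim members at their bound, and -3.17 in clone 2. MAL2, a transcytosis protein, went from 12.18 to below background, at least 110-fold lower, CDH3, or P-cadherin, at least 101-fold, and RAB25, an epithelial vesicle GTPase, at least 46.3-fold. CLDN7, a claudin, was 22.1-fold lower, while CD24, a surface glycoprotein, differed by -0.21 in clone 1 and -0.03 in clone 2. Keratins were 2-fold lower in 5 of 8 measured and higher in 0. KRT19 was at 13.61, 12.15 and 9.74 and KRT8 at 12.30, 10.89 and 10.80. Lung and endoderm lineage genes were lower in 7 of 15 and higher in 1, with SFTA2, a surfactant-associated protein, 34.0-fold and NAPSA, the protease of surfactant processing, 18.3-fold lower.

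Mesenchymal genes and transcription factors of the epithelial to mesenchymal transition were 2-fold higher in 5 of 16 measured and lower in 0, with a median of 0.51 in clone 1 and 0.85 in clone 2. VIM, or vimentin, was at 8.89, 13.88 and 13.51. ZEB2, a repressor of CDH1, was at least 3.45-fold higher in clone 1, FSTL1 4.65-fold and MYL9, a myosin light chain, 3.09-fold. Matricellular proteins were higher in 7 of 14 and lower in 2, with a median of 1.02. THBS2, a thrombospondin, was at 6.12, 10.56 and 10.13 and SPP1, or osteopontin, at 10.09, 13.93 and 14.41, while EFEMP1, a fibulin, was at 11.21, 7.34 and 8.08.

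Some lists were nearer to parental cells in clone 1 than in clone 2, side by side and untested. Targets of YAP and TEAD, the growth-control factors of the Hippo pathway, had a median of 0.07 in clone 1 and 0.85 in clone 2. Of these 17 genes 3 were higher and 2 lower in clone 1. Of all genes 6.34% were 2-fold higher and 6.64% lower in clone 1, which holds beside each count of this paragraph. CCN2 was at 5.72, 8.17 and 8.69, ANKRD1 at 5.71, 7.69 and 8.77 and CCN1 at 11.18, 12.62 and 12.91. Genes of G1/S and mitosis had medians of 0.05 and 0.50, with 3 of 27 higher and 0 lower in clone 1, among them CCND3, cyclin D3, at 9.83, 11.69 and 11.05 and BIRC5, or survivin, at 7.34, 8.44 and 9.24. Over the processing settings the clone 1 median of the YAP and TEAD targets ran from -0.04 to 0.07 and that of the G1/S and mitosis genes from -0.06 to 0.11. Genes of DNA replication had medians of 0.31 and 0.66. Chemokines, cytokines and NF-kB targets lay on opposite sides of parental cells at -0.18 and 0.32 (the former 0.05 among genes above background on all 3 arrays), with 3 of 32 higher and 8 lower in clone 1, among the latter LCN2, lipocalin 2, 17.5-fold and IL1B, interleukin-1 beta, 7.18-fold lower.

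**Figure D5:**
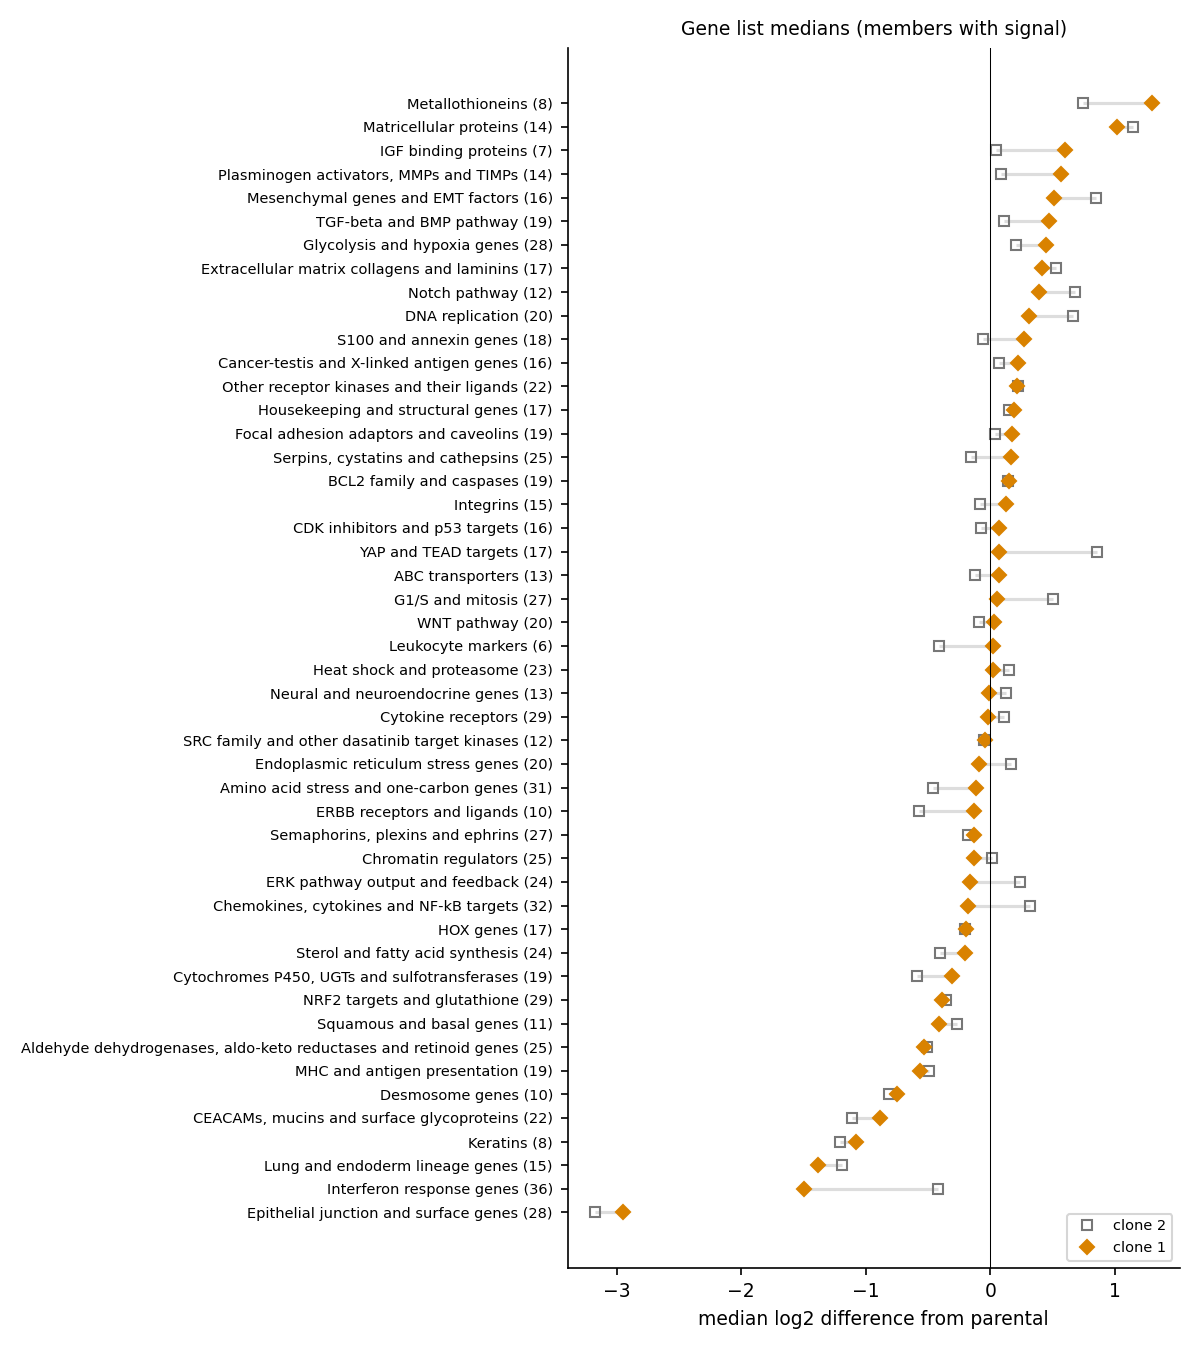
Median log2 difference from parental cells (x axis) of the measured members of each gene list with 5 or more (y axis, number of members in brackets) in clone 1 (orange diamonds) and clone 2 (open squares), 1 array each. The interferon response genes show the widest gap between the clones, -1.49 against -0.42, followed by the YAP and TEAD targets, 0.07 against 0.85.

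Enzymes of aldehydes, retinoids and detoxification gave some of the widest differences, in both directions. AKR1C2, an aldo-keto reductase, was at 5.70, 14.32 and 13.07, 394-fold higher in clone 1. Its other probe did not pass background in parental cells and read 5.74 in clone 1, and averaging the probes gave a difference of 4.91. AKR1C genes are near-identical, so the probe may read a relative. AKR1C4 was 15.3-fold higher, while AKR1C3 was at 11.37, 11.96 and 11.94. ALDH1A1, a retinaldehyde dehydrogenase, was at least 180-fold higher in clone 1. Of 25 measured genes of this group 4 were higher and 6 lower. NRF2 targets, which answer oxidative stress, were 2-fold higher in 2 and lower in 6 of 29, beside 6.34% and 6.64% of all genes. HMOX1, heme oxygenase, was at 7.82, 11.02 and 10.28 and NQO1, a quinone reductase, at 12.96, 11.28 and 10.60. The drug efflux pump ABCB1 was 6.47-fold higher and the survival gene BCL2 at least 17.3-fold. The other BCL2 probe differed by 2.86 with parental cells below background, and the BCL2 difference fell to 3.22 in some settings.

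The remaining genes at the extremes of clone 1 were also 2-fold off the same way in clone 2. Among the 15 highest, TNFAIP6, a hyaluronan-binding protein, was at least 129-fold higher, CRP, the acute-phase protein, at least 111-fold, CA2, a carbonic anhydrase, at least 104-fold and GLDC, of the glycine cleavage system, 80.0-fold higher. The other TNFAIP6 probe passed background in neither parental cells nor clone 1, and the average of both gave a difference of 3.33. The other CA2 probe was above background on both arrays and differed by 5.83, less than the bound of 6.70 from the brightest probe. Among the 15 lowest, PLAAT4, a retinoid-inducible phospholipase, was 117-fold, ERP27, a disulfide isomerase relative, at least 88.3-fold and SCNN1A, a subunit of the epithelial sodium channel, 71.3-fold lower. PRODH, which starts proline breakdown, and CEACAM6, an adhesion molecule, were 56.6-fold and at least 56.4-fold lower. Of 17 measured structural genes 1 was 2-fold lower in clone 1, HPRT1 on chromosome X, and 0 higher, beside 6.64% and 6.34% of all genes. EEF1A1 stood at 14.91, 15.03 and 15.06.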

How the data were processed

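Total RNA of HCC827, clone 1 and clone 2 was hybridised as biotin-labelled cRNA to 3 Illumina HumanHT-12 v3 arrays, 1 colour and 1 sample each, per the labels' protocols and the series' design text. The authors deposited 1 intensity per probe for 48803 probes, not background-subtracted and not normalized between arrays. No detection p-value and no negative control spots came with these deposited intensities, and no source used here names the bead summary software. A second deposited table holds the authors' processed intensity, on a linear scale, with medians of 59.6, 59.7 and 59.7 in parental cells, clone 1 and clone 2. It was not centred, it ranked the probes of each array as the first table does, and the 3 columns share 1 distribution, as quantile normalization gives. The sources used here do not give how it was computed, and it served as an alternative.

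Intensities were background-corrected with limma 3.58.1 (R 4.3.3) by normexp without control spots, with an offset of 16, taken to log2 and quantile-normalized over the 3 arrays. A probe was above background where its log2 intensity passed the array's mode by a 1-sided p of 0.01, the SD being that of the values below the mode. The platform annotation gave 1 gene to 28098 probes, several to 13 and none here to 20692. Of the 28098, 28059 were given a current symbol from RefSeq's table of genes, assembly GRCh38.p14, and 39 kept the file's name. Of them, 15634 were above background on at least 1 array and stood for 11803 genes, each described by its probe with the highest mean log2 signal. RefSeq also gave the order of genes along chromosomes and the promoter windows. Tables were joined with Python 3.11.15 (pandas 2.3.3, numpy 2.4.6) and drawn with matplotlib 3.10.9.

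A gene counted as 2-fold off where its log2 difference, taken as a bound on a dim side, reached 1, and as off in clone 1 by itself where it was also under 1.5-fold in clone 2. The arrays carry 1 sample a group, so nothing was tested, and their number limits the precision. The steps were tested on simulated data. The members and the 50 gene lists, with 1257 genes, were chosen with earlier results of these data known, and the chromosome stretches and the genes lying 2-fold farther in clone 1 were picked after seeing the data. Genes named were the 15 highest and 15 lowest in clone 1, SRC, AXL, MET and EGFR, the 20 highest and 20 lowest in clone 1 by itself, up to 4 members of each list with the largest differences and its brightest member under 2-fold, each list member off in clone 1 by itself, genes moving opposite ways, genes of the 3 longest runs of neighbours, and the 2 genes on each side of each threshold. Other genes named are outside that rule and were chosen after their values were seen: markers, further interferon response genes, other genes of the chromosome stretches, genes farther in clone 1, and CADM1, RDH5, POU4F1 and ISL1. Alternatives changed the offset, the background correction, the normalization, the table of values, the filter, the background threshold, the probe and the rule for clone 1 by itself.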

Additional observations from a re-analysis of the deposited data

Results flagged for a closer look

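CNTNAP2, LOX and PNCK drew attention because their measured signals lay over 2-fold off the parental ones in opposite directions in the 2 clones. With 1 array a line the difference between the clones was not tested. CNTNAP2, an adhesion protein of the axon, was 1.39 higher on the log2 scale in clone 1 and its difference in clone 2 was -1.09. LOX, which crosslinks collagen, had a log2 difference of 1.32 in clone 2. In clone 1 it was not well above background, and the difference of -1.43 rests on that dim signal. As a bound it was at least 1.52-fold lower there, which is under 2-fold. PNCK, a kinase of the calmodulin-dependent family, was 2.00 higher on the log2 scale in clone 1, and its difference in clone 2 was -1.62.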

How the results depend on the processing

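Each group has 1 array, so no replicate could be left out and no spread between replicates sets a limit on any difference. No paired analysis was possible because each group has 1 array and no replicate numbers are shared. The 79 genes higher in clone 1 by itself became 32 when clone 2 had to be less than 0.32 off on the log2 scale, 35 when the clones also had to differ 2-fold, and 11 at 3-fold in clone 1. The 87 lower genes became 46, 40 and 14 under the same rules. Without chromosome X and the chromosome 14 stretch, a choice made after seeing the data, 45 lower and 74 higher genes were left. The 870 genes at least 2-fold lower became 562 among genes above background on all 3 arrays, a filter that removes every gene not above background in clone 1. The other counts stayed within 1.5 times, but their members changed. With an offset of 50, 63 higher and 63 lower genes were off in clone 1 by itself. Only 46 of the 79 higher and 62 of the 87 lower genes were among them. With median scaling the counts were 70 and 103, and 56 of the 79 and 74 of the 87 were kept. With the authors' values they were 65 and 67, and 47 of the 79 and 66 of the 87 were kept. Of 68 genes off in clone 1 by itself under the naming rule, 17 fell under 2-fold in some setting. Of the 309 genes under the naming rule none that was at least 2-fold off changed sign, and 175 of 3316 values, in 75 genes, moved by 1.5-fold or more, 63 of them under the offset of 50. Dim genes near background are the least certain, since their differences shrink with the offset.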

Other observations

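Probes that the platform annotation does not list with a gene were left out above. Of these, 3149 were above background in parental cells or clone 1. Clone 1 was at least 2-fold above parental cells for 140 of them (4.45%) and below for 158 (5.02%). In clone 2, 23 of the higher and 16 of the lower ones were under 1.5-fold off parental cells.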
